A study of Mus musculus with 32 samples.

Results

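Nuclei of the mouse colon were sorted at the University of Bern into an EGFP-positive fraction, labelled neuronal, and an EGFP-negative fraction, labelled non-neuronal, and the RNA of each fraction was sequenced. The 8 libraries described here, 4 neuronal and 4 non-neuronal, were taken by their column names from a table of 32 libraries. Both groups came from C57BL/6 mice kept specific pathogen-free. The animals of both groups, and of all other libraries of the series, had been injected into a vein with AAV9 carrying EGFP fused to a KASH domain under the CaMKII promoter. Nuclei were taken 5 weeks later from the muscle layer with its attached myenteric plexus. Within the colon of Bern animals the libraries are called neuronal 1 to 4 and non-neuronal 1 to 4 after their labels. The rest of the series consists of the same 2 sorts from Bern small intestine and from colon and small intestine of animals of the Francis Crick Institute, with 4 libraries in each group. The KASH domain ties EGFP to the nuclear envelope, so that single nuclei carry the tag through sorting. The sort is therefore defined by uptake of the virus and activity of the CaMKII promoter, not by the identity of the cell. The labels do not give the age or sex of the animals, how many animals were pooled into a library, or whether libraries that carry the same number came from the same animals, so the p-values measure only the spread between these libraries.

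The myenteric plexus is the network of ganglia between the circular and longitudinal muscle layers of the gut. Its neurons derive from the neural crest and depend on the receptor RET during development. Excitatory motor neurons release acetylcholine and tachykinins, and inhibitory motor neurons release nitric oxide and VIP, with interneurons and intrinsic sensory neurons completing the circuit. Around the ganglia lie smooth muscle cells, interstitial cells of Cajal that set the electrical rhythm, PDGFRA-positive fibroblast-like cells, glia, macrophages and vessels.

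The neuronal libraries held 2420837 to 3900979 counts and the non-neuronal libraries 2562144 to 4618379 counts, as estimated per gene by the authors. A level is given below in CPM, a gene's count per 1000000 counts of its library. It compares libraries, not genes of different length. Differences were tested with edgeR's quasi-likelihood test on the 8 libraries. Fold changes are log2 of neuronal over non-neuronal. The value after ± of a log2 fold change, or of a difference of them, is a standard error worked out from that value and its test statistic. It is therefore not independent of the p-value. The p-values were adjusted over all genes tested by the Benjamini-Hochberg method, and a gene was called where its adjusted p was under 0.05. Of 14929 genes tested, 2021 were called (13.5%), of which 796 were higher in neuronal nuclei (5.33% of the genes tested) and 1225 lower (8.21%). Counts of called genes in the lists below are to be read against these shares. Every neuronal library lay above every non-neuronal one for 1548 genes (10.4%) and below every one for 1523 (10.2%). The median log2 fold change over all genes tested was -0.05. In these bulk libraries, fewer nuclei of a type and less RNA per nucleus cannot be told apart. At an equal depth of 2420837 counts, 18708 ± 934 genes were detected in neuronal libraries and 19683 ± 521 in non-neuronal libraries (SD, n = 4 each; two-sided exact permutation test, p = 0.143). Mitochondrially encoded transcripts, which are made outside the nucleus, took 0.511 ± 0.073% of the counts in neuronal libraries and 5.25 ± 1.77% in non-neuronal libraries (SD, n = 4 each), a difference of -4.74 percentage points (two-sided exact permutation test, p = 0.0286, the smallest that 4 against 4 libraries can give). All 10 of the tested members of the mitochondrially encoded list were lower, and the list's sum was 1303, 999.6, 1126 and 1431 CPM in neuronal libraries and 7484, 8239.7, 10971 and 12488 CPM in non-neuronal libraries. The part of cytoplasmic RNA in the other results was not tested. Of 221 named genes that were looked up, 28 share exon bases with another gene that averaged at least 0.1 times their own level in these libraries, mostly on the other strand. The values of these genes are uncertain, since the labels do not say that strand was used in counting: Bhlhe40, Bhlhe41, Cadm3, Clcn1, Csf1r, Esrp2, Gm37376, Hand2, Hoxd3, Htr2b, Ina, Lilr4b, Malat1, Mb, Nefl, Nefm, Nova2, Nr1d1, Oprm1, Pcdha2, Plin4, Rag2, Smtn, Srrm4, Syn1, Syn3, Trmt112 and Unc13a.

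The label of the EGFP-positive nuclei was set against 20 genes listed as pan-neuronal. This list was made with earlier results of these data known, so it is no independent check of the label. All 20 were tested, 14 were higher in neuronal nuclei, none was lower, and their median log2 fold change was 2.26. The summed level of the 20 genes was 15433, 18492, 16713 and 15347 CPM in neuronal libraries 1 to 4 and 5434, 4087, 2111 and 1998 CPM in non-neuronal libraries 1 to 4. The groups did not overlap, yet the non-neuronal libraries were far from empty of these transcripts and differed among themselves. Relative to the mean of the neuronal libraries, non-neuronal library 1 held 32.9% of the pan-neuronal sum, library 2 held 24.8%, library 3 held 12.8% and library 4 held 12.1%. Taken gene by gene, the median share was 30.4%, 18.7%, 17.1% and 12.8% in the same libraries. Of the 20 genes, 13 were highest in non-neuronal library 1, 5 in library 2, 2 in library 3 and none in library 4, whereas library 1 was the highest for 4486 of all 14929 genes tested.

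**Figure D1:**
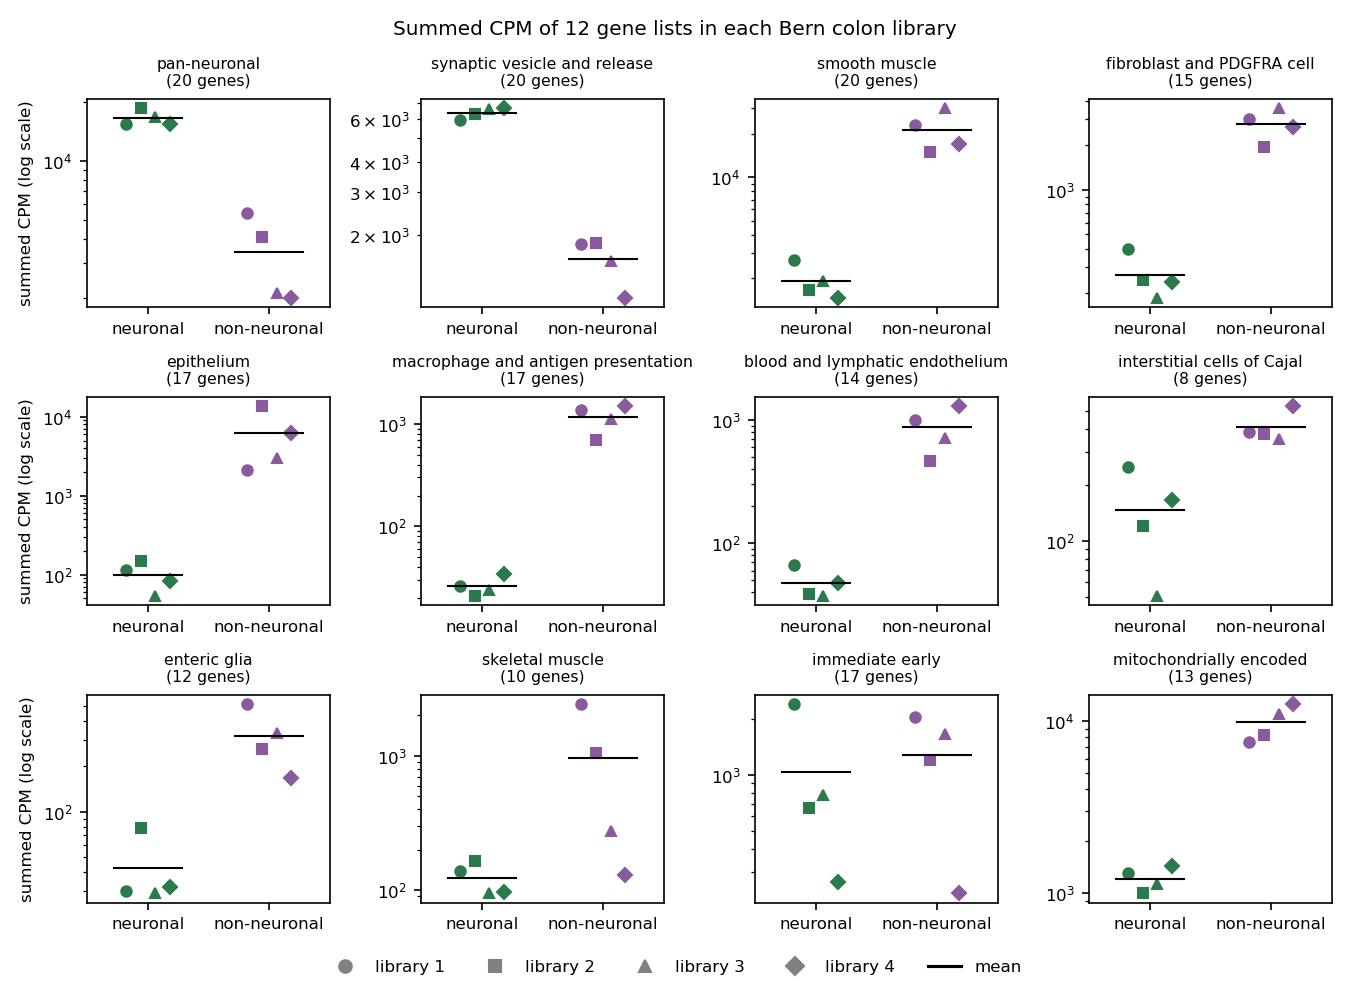
Summed CPM (log axes) of 12 gene lists in the 8 Bern colon libraries; each point is a library, its shape the library number, and the black bar the mean of 4. The pan-neuronal and release sums lie higher in the neuronal libraries and the sums of other cell types lie lower except that of skeletal muscle, which overlaps, and the non-neuronal libraries differ among themselves in the pan-neuronal, epithelial and skeletal muscle sums.

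Snhg11 (ENSMUSG00000044349; chr2:158375638-158386145, + strand of GRCm38), a long non-coding RNA host gene abundant in neuronal nuclei, carried most of the pan-neuronal counts of the neuronal libraries. It had 10317, 11292, 9827 and 7879 CPM in neuronal libraries, against 3104, 2159.8, 1012 and 908 CPM in non-neuronal libraries (log2 fold change 2.35 ± 0.34, adjusted p = 0.00023). Its non-neuronal values fall in the order of the summed list, with libraries 1 and 2 above libraries 3 and 4. The RNA-binding protein gene Elavl3 had 311, 309, 225 and 167 CPM in neuronal libraries, against 27.3, 32.9, 24.5 and 14.4 CPM in non-neuronal libraries (log2 fold change 3.22 ± 0.42, adjusted p = 0.000109). Here library 2 was the highest of the non-neuronal libraries and library 3 was close to library 1, so the order of the sum was not that of every gene. Prph, which encodes the intermediate filament peripherin of peripheral neurons, had 738, 759, 453 and 447 CPM in neuronal libraries, against 152, 109, 45.2 and 42.8 CPM in non-neuronal libraries (log2 fold change 2.67 ± 0.42, adjusted p = 0.000483). Uchl1, a ubiquitin hydrolase abundant in neurons, had 254.5, 567, 317 and 265 CPM in neuronal libraries, against 55.0, 15.6, 19.6 and 1.51 CPM in non-neuronal libraries (log2 fold change 3.86 ± 0.69, adjusted p = 0.00128). Map2, which encodes a dendritic microtubule protein, and Stmn2, which encodes a regulator of microtubules in axons, were also higher (2.35 ± 0.33, adjusted p = 0.000208 and 2.02 ± 0.32, adjusted p = 0.000514). Elavl4, Mapt, Dcx, Nsg2 and Snap25 were called with log2 fold changes of 1.83, 2.16, 2.39, 1.86 and 1.39. Ina, Nefl and Celf4 completed the 14, but their calls were lost when single libraries were left out. Celf4 was lost without neuronal library 3 or non-neuronal libraries 3 or 4 (adjusted p = 0.0537, 0.0511 and 0.0502). Here and below each library was left out singly, and the adjusted p-values follow the order of the libraries. Ina was lost without neuronal libraries 1, 2, 3 or 4 or non-neuronal libraries 2, 3 or 4 (adjusted p = 0.113, 0.0857, 0.0652, 0.0621, 0.0907, 0.0974 and 0.12). Nefl was lost without neuronal libraries 2, 3 or 4 or non-neuronal libraries 1, 2 or 4 (adjusted p = 0.0635, 0.14, 0.0971, 0.0713, 0.0801 and 0.113).

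The pan-neuronal genes that missed the threshold included some with uneven non-neuronal values. Syt1, the calcium sensor of synaptic vesicle release, had 322, 324, 436 and 459 CPM in neuronal libraries, against 219, 232, 65.5 and 74.3 CPM in non-neuronal libraries (log2 fold change 1.27 ± 0.42, adjusted p = 0.0551). Non-neuronal libraries 1 and 2 were well above libraries 3 and 4, and all 4 stayed below the lowest neuronal library. Rbfox3, which encodes the antigen NeuN, had 17.8, 96.4, 44.3 and 105.3 CPM in neuronal libraries, against 83.1, 1.52, 14.9 and 2.02 CPM in non-neuronal libraries (log2 fold change 1.35 ± 0.98, adjusted p = 0.444). Its groups overlapped through non-neuronal library 1 alone. With non-neuronal libraries 1 and 2 left out together, Syt1 was called (2.33 ± 0.41, adjusted p = 0.0025) and Rbfox3 was not (2.77 ± 1.02, adjusted p = 0.103), and 15 of the 20 genes were called. Stmn3, Tubb3, Nefm and Gap43 also missed the threshold, with log2 fold changes of 2.82, 2.39, 2.05 and 1.60.

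**Figure D2:**
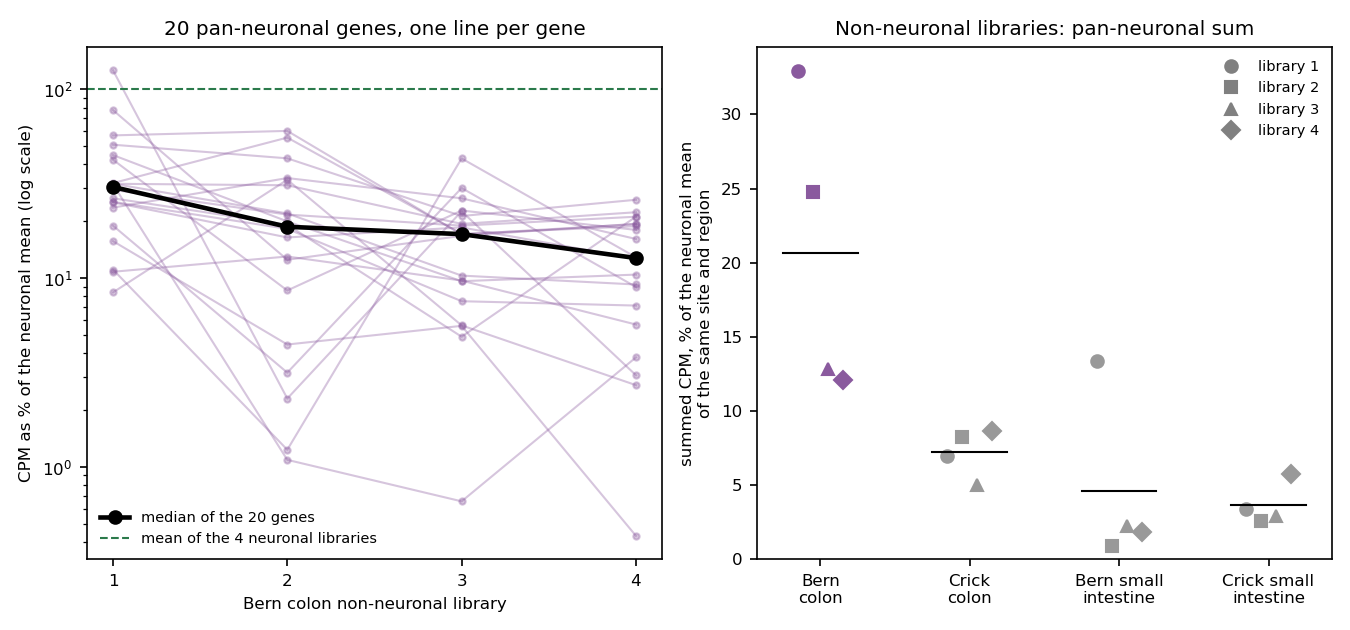
Left, CPM of each of 20 pan-neuronal genes in the 4 Bern colon non-neuronal libraries as a percentage of its neuronal mean (log axis; a grey-purple line joins the values of a gene, the black line joins the medians, and the dashed line marks the neuronal mean). Right, the summed list in every non-neuronal library of the series as a percentage of the neuronal mean of the same site and region, with bars at the means; the Bern colon libraries lie between 12.1% and 32.9%, and the Crick colon libraries between 4.99% and 8.63%.

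The grading reached beyond the list. Of the 796 genes called higher in neuronal nuclei, 413 (51.9%) had their highest non-neuronal value in library 1, compared with 4486 of the 14929 tested and 288 of the 1225 genes called lower (23.5%). Both libraries 1 and 2 were above both libraries 3 and 4 for 245 of the genes called higher (30.8%), 2503 of all genes tested (16.8%) and 123 of the genes called lower (10.0%). These shares are descriptions of 4 libraries, and since a call depends on the same values they carry no test. Some neuronal genes were found in non-neuronal library 1 and hardly in the other 3. Alk, a receptor tyrosine kinase gene, had 56.6, 93.9, 60.5 and 54.6 CPM in neuronal libraries, against 67.1, 3.03, 1.31 and 6.80 CPM in non-neuronal libraries. Slc6a2, the noradrenaline transporter gene of sympathetic neurons, had 0, 0, 0 and 0 CPM in neuronal libraries, against 26.5, 0.433, 0 and 0 CPM in non-neuronal libraries. Th, which encodes the first enzyme of catecholamine synthesis, had 0, 5.96, 7.18 and 25.6 CPM in neuronal libraries, against 16.002, 0, 0 and 0.504 CPM in non-neuronal libraries. Tlx2, a transcription factor of enteric neurons, had 16.1, 11.6, 26.4 and 5.01 CPM in neuronal libraries, against 16.4, 0.433, 0 and 0.504 CPM in non-neuronal libraries. None of these 4 was called, and Slc6a2 had too few counts to be tested. Leaving out non-neuronal libraries 1 and 2 together gave 835 genes higher (4.81% of 17361 tested) and 1237 lower (7.13%), so the number of genes higher changed by less than 1.5 times. Of 178 genes named here and called, 13 were no longer called: Chat (0.148), Erbb3 (0.0963), Etv1 (0.183), Hoxd3 (0.107), Jun (0.0679), Neat1 (0.133), Neb (0.427), Nefl (0.158), Nr1d1 (0.135), Slc5a7 (0.0534), Srrm4 (0.0736), Tacr3 (0.102) and Ttn (0.395), with the adjusted p of each in parentheses.

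The summed skeletal muscle transcripts had the same order of non-neuronal libraries as the pan-neuronal sum. The summed level of 10 such genes was 138, 165, 94.3 and 97.2 CPM in neuronal libraries and 2438, 1043, 273 and 129 CPM in non-neuronal libraries. Ttn, which encodes the giant sarcomeric protein titin, supplied most of it with 18.2, 73.9, 51.3 and 29.8 CPM in neuronal libraries, against 1923, 720.2, 162 and 15.6 CPM in non-neuronal libraries (log2 fold change -4.09 ± 0.92, adjusted p = 0.00629). Non-neuronal library 4 lay below every neuronal library, and without non-neuronal libraries 1 and 2 the difference missed the threshold (-1.23 ± 0.80, adjusted p = 0.395). Neb, which encodes nebulin, had 25.6, 15.7, 5.64 and 13.7 CPM in neuronal libraries, against 366, 96.8, 61.3 and 9.07 CPM in non-neuronal libraries (log2 fold change -3.21 ± 0.82, adjusted p = 0.0142). The call for Neb was lost without non-neuronal library 1 (adjusted p = 0.122). Of the 5 tested genes 2 were highest in non-neuronal library 1 and 1 each in libraries 2, 3 and 4. Myh4 and Mb, which define fast skeletal fibres and myoglobin-rich muscle, were at 0 to 3.12 and 0 to 1.17 CPM over the non-neuronal libraries. Tnnt3 of the same list, by contrast, had no count in the neuronal libraries. It was at least 109.9-fold lower there, 36.9 without non-neuronal library 2, but had no call. Of the 10 genes 5 were tested and 2 were lower; without non-neuronal library 1 the count was 1 of 5, and without neuronal library 3 or neuronal library 4 it was 4 of 6. Without non-neuronal libraries 1 and 2 together, 1 gene was higher and 1 lower of 5 tested. Whether the skeletal muscle and neuronal transcripts of library 1 share a source was not tested.

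Some transmitter genes of each motor neuron class were higher in neuronal nuclei. The cholinergic and tachykinin list of 7 genes also holds the opioid genes Penk and Oprm1. Of these 7 genes, 5 were higher, Penk and Oprm1 among them, and 1 was lower. Of 6 nitrergic and VIP-related genes, 4 were tested and 3 were higher. Nos1 (chr5:117781032-117958840, + strand), the neuronal nitric oxide synthase, had 1578, 1868, 1877 and 1382 CPM in neuronal libraries, against 394, 386, 164 and 128 CPM in non-neuronal libraries (log2 fold change 2.53 ± 0.36, adjusted p = 0.000231). Its non-neuronal values split between libraries 1 and 2 and libraries 3 and 4, as for Snhg11. Penk, the enkephalin precursor, had 752, 288, 342 and 369 CPM in neuronal libraries, against 35.1, 4.76, 25.8 and 19.4 CPM in non-neuronal libraries (log2 fold change 4.28 ± 0.54, adjusted p = 7.6e-05). Tac1, which encodes substance P and neurokinin A, had 509, 414, 394 and 468 CPM in neuronal libraries, against 57.0, 94.6, 31.6 and 14.4 CPM in non-neuronal libraries (log2 fold change 3.04 ± 0.49, adjusted p = 0.000548). Gal, the galanin precursor, had 161, 70.4, 55.1 and 25.1 CPM in neuronal libraries, against 6.24, 3.46, 1.31 and 4.28 CPM in non-neuronal libraries (log2 fold change 4.25 ± 0.78, adjusted p = 0.00146). Cartpt, the CART peptide precursor, had 33.9, 58.7, 34.6 and 14.2 CPM in neuronal libraries, against 0.781, 0, 0.783 and 1.01 CPM in non-neuronal libraries (log2 fold change 5.62 ± 1.11, adjusted p = 0.0026). The levels left outside the tagged nuclei were as follows. The non-neuronal mean was 1.82% of the neuronal mean for Cartpt, 4.86% for Penk, 4.91% for Gal, 11.1% for Tac1 and 15.998% for Nos1. Oprm1, the mu opioid receptor gene, was higher as well (2.53 ± 0.56, adjusted p = 0.00549).

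The calls of the genes of acetylcholine handling were less stable. Chat, the enzyme that makes acetylcholine, had 52.5, 192, 189 and 146 CPM in neuronal libraries, against 41.8, 45.0, 62.1 and 31.2 CPM in non-neuronal libraries (log2 fold change 1.55 ± 0.48, adjusted p = 0.0407). Neuronal library 1 lay among the non-neuronal libraries, and the call was lost without neuronal libraries 2, 3 or 4 or non-neuronal libraries 1, 2 or 4 (adjusted p = 0.116, 0.116, 0.0718, 0.0814, 0.066 and 0.112). Slc5a7, the choline transporter of cholinergic terminals, had 81.8, 96.9, 76.6 and 136 CPM in neuronal libraries, against 41.8, 11.7, 29.0 and 15.6 CPM in non-neuronal libraries (log2 fold change 1.90 ± 0.54, adjusted p = 0.0253). The call for Slc5a7 was lost without neuronal libraries 2 or 4 or non-neuronal libraries 2 or 4 (adjusted p = 0.0543, 0.0827, 0.0564 and 0.0778). The count of 5 in this list fell to 3 without non-neuronal library 2, without non-neuronal library 4, without neuronal library 2 and without neuronal library 4, and to 3 without non-neuronal libraries 1 and 2 together. Slc18a3, the vesicular acetylcholine transporter, did not pass (log2 fold change 2.07 ± 0.85, adjusted p = 0.132). The gene lower in neuronal nuclei was Tacr1, the substance P receptor, with 9.91, 3.79, 8.72 and 7.52 CPM in neuronal libraries, against 114, 113, 86.7 and 18.1 CPM in non-neuronal libraries (log2 fold change -3.59 ± 0.70, adjusted p = 0.00228). In the gut this receptor is known from interstitial cells of Cajal as well as from some neurons.

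Vip and Sst were not called. Vip, a marker of inhibitory motor neurons, had 32.6, 214, 77.4 and 162 CPM in neuronal libraries, against 55.8, 90.5, 42.5 and 7.81 CPM in non-neuronal libraries (log2 fold change 1.15 ± 0.66, adjusted p = 0.31), with overlap of the groups. Sst, the somatostatin precursor, had 351, 154, 148 and 156 CPM in neuronal libraries, against 186, 116, 128 and 96.7 CPM in non-neuronal libraries (log2 fold change 0.51 ± 0.38, adjusted p = 0.464). Its non-neuronal mean was 65.1% of the neuronal mean. Somatostatin is also made by endocrine cells of the gut epithelium. Chga, a general endocrine and neuronal granule gene, had 93.4, 122, 37.2 and 63.8 CPM in neuronal libraries, against 45.3, 4.11, 21.4 and 21.9 CPM in non-neuronal libraries (log2 fold change 1.68 ± 0.66, adjusted p = 0.113). It was higher in 3 of the 4 neuronal libraries than in any non-neuronal library. None of the 6 tested genes of the sensory neuron list was higher, and Piezo2, a mechanically gated channel, was lower with 24.8, 45.2, 36.4 and 19.5 CPM in neuronal libraries, against 183, 136, 148 and 126 CPM in non-neuronal libraries (log2 fold change -2.35 ± 0.43, adjusted p = 0.00158). Grp, which encodes gastrin-releasing peptide, was at 17.1 to 66.0 CPM in neuronal libraries, against 0.252 to 11.3 CPM in non-neuronal libraries, without overlap but with no call (log2 fold change 2.89 ± 1.07, adjusted p = 0.0904). Calb2, which encodes calretinin, and Calcb, a CGRP gene, were not called (2.07 and 1.09). Nog and Cck of the same list, which mark sensory neurons, had a count in 1 library each and were at most 0.836 CPM. Without non-neuronal library 1 the list had 1 gene higher of 7 tested. Of 12 amine and glutamate transmitter genes, 5 were tested, 1 was higher and 1 lower. Dbh, which makes noradrenaline, had 13.6, 30.3, 58.4 and 18.4 CPM in neuronal libraries, against 3.12, 3.03, 0 and 1.01 CPM in non-neuronal libraries (log2 fold change 3.97 ± 1.13, adjusted p = 0.0271). The call for Dbh was lost without neuronal libraries 2 or 3 or non-neuronal library 4 (adjusted p = 0.0544, 0.111 and 0.0762). Ddc, the decarboxylase of amine synthesis that is also found in gut epithelium, was lower (-4.89 ± 1.14, adjusted p = 0.0077). The vesicular GABA transporter gene Slc32a1 and the brain serotonin enzyme gene Tph2 had no count in any of the 8 libraries. The number of genes of this list called higher was 2 of 5 without non-neuronal library 1.

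**Figure D3:**
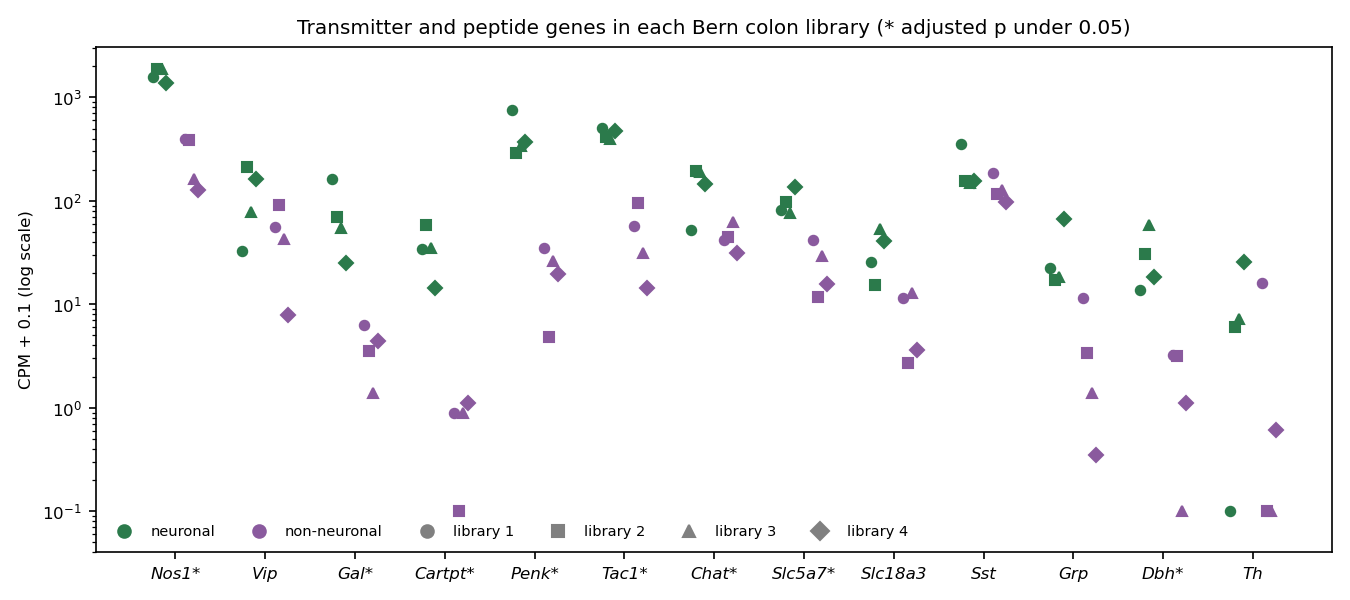
CPM + 0.1 (log axis) of 13 transmitter and peptide genes in the 4 neuronal (green) and 4 non-neuronal (purple) Bern colon libraries; shapes mark the library number and an asterisk marks genes with adjusted p under 0.05. Gal, Cartpt, Penk, Tac1 and Nos1 separate the groups, Vip and Sst overlap, and Th is present in non-neuronal library 1 at 16.002 CPM.

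The release machinery gave calls in 1 direction. Of 20 genes of synaptic vesicles and transmitter release, all tested, 10 were higher and none was lower, with a median log2 fold change of 1.76. The summed list was 5917, 6277, 6577 and 6631 CPM in neuronal libraries and 1848, 1858, 1578 and 1111 CPM in non-neuronal libraries, so non-neuronal libraries 1 to 3 were closer to each other than in the pan-neuronal list. Pclo, which encodes the active zone scaffold piccolo, had 1287, 2815, 2975 and 3616 CPM in neuronal libraries, against 673, 882, 605 and 380.1 CPM in non-neuronal libraries (log2 fold change 1.94 ± 0.34, adjusted p = 0.00117). Unc13a, the main priming factor of vesicles, had 996, 737, 805 and 609 CPM in neuronal libraries, against 32.8, 146, 72.8 and 18.9 CPM in non-neuronal libraries (log2 fold change 3.37 ± 0.54, adjusted p = 0.000533). Its relative Unc13b was higher as well (1.36 ± 0.31, adjusted p = 0.00703). Sv2c, a vesicle glycoprotein gene, had 261, 186, 159 and 246 CPM in neuronal libraries, against 28.1, 16.7, 6.00 and 12.8 CPM in non-neuronal libraries (log2 fold change 3.65 ± 0.49, adjusted p = 0.00013). Cplx1, the clamp complexin 1, had 51.2, 14.1, 11.3 and 14.2 CPM in neuronal libraries, against 1.17, 0, 0 and 0 CPM in non-neuronal libraries (log2 fold change 6.29 ± 1.48, adjusted p = 0.00807), with counts in only 1 of the non-neuronal libraries. Syt4 and Syn1 were higher by 2.68 and 2.11.

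Channels that shape firing were split by subtype. Of 25 potassium channel genes tested, 8 were higher and 3 lower, and of 19 sodium, calcium and HCN channel genes tested, 7 were higher and 2 lower. Kcnq3, a subunit gene of the M-current channel, had 590.3, 1041, 758 and 889 CPM in neuronal libraries, against 96.0, 111, 49.1 and 100.5 CPM in non-neuronal libraries (log2 fold change 3.08 ± 0.34, adjusted p = 2.5e-05). The G protein-gated channel gene Kcnj6 had 49.2, 89.1, 77.7 and 120.1 CPM in neuronal libraries, against 5.46, 1.08, 2.09 and 0 CPM in non-neuronal libraries (log2 fold change 5.23 ± 0.93, adjusted p = 0.00124). The A-type channel gene Kcnd2 had 62.0, 47.1, 47.7 and 58.5 CPM in neuronal libraries, against 2.34, 3.46, 1.04 and 4.79 CPM in non-neuronal libraries (log2 fold change 4.07 ± 0.78, adjusted p = 0.002). The sodium-activated channel genes Kcnt1 and Kcnt2 and the fast delayed rectifier genes Kcnc1 and Kcnc2 were higher by 2.81, 1.97, 3.38 and 2.77. The potassium channel genes lower in neuronal nuclei were Kcnmb1, Kcnj8 and Kcna1. Kcnmb1, the smooth muscle subunit of the BK channel, had 16.1, 2.71, 1.28 and 1.95 CPM in neuronal libraries, against 209.6, 169, 239.9 and 119 CPM in non-neuronal libraries (log2 fold change -5.24 ± 0.75, adjusted p = 0.000219). Kcnj8, a subunit of vascular and pericyte ATP-sensitive channels, had 0, 0, 0 and 0.557 CPM in neuronal libraries, against 78.1, 15.2, 3.92 and 23.2 CPM in non-neuronal libraries (log2 fold change -7.42 ± 1.46, adjusted p = 0.00243). Kcna1, a Shaker-type channel gene, was at 0 to 0.413 CPM in neuronal libraries, against 14.1 to 45.7 CPM in non-neuronal libraries (log2 fold change -6.83 ± 1.20, adjusted p = 0.00108).

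Scn9a, the sodium channel Nav1.7 of peripheral neurons, had 297, 259, 277 and 420.1 CPM in neuronal libraries, against 79.2, 5.85, 9.92 and 19.9 CPM in non-neuronal libraries (log2 fold change 3.42 ± 0.63, adjusted p = 0.00161). Non-neuronal library 1 again held the highest of the non-neuronal values, and all 4 lay below the neuronal ones. The presynaptic calcium channel genes Cacna1b and Cacna1a and the sodium channel gene Scn2a were higher (2.53 ± 0.39, adjusted p = 0.000408, 2.37 ± 0.36, adjusted p = 0.000326 and 2.11 ± 0.38, adjusted p = 0.00131, in that order). Cacna1c, the L-type channel that drives smooth muscle contraction, was lower with 261, 339, 342 and 428 CPM in neuronal libraries, against 1012, 784, 1055 and 807 CPM in non-neuronal libraries (log2 fold change -1.54 ± 0.28, adjusted p = 0.00128). Scn7a, an atypical sodium channel gene, was lower as well (-2.34 ± 0.48, adjusted p = 0.0035).

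Of 31 transmitter receptor genes, 29 were tested, 13 were higher and 2 lower. This count was among the least stable: it was 8 without non-neuronal library 3, without non-neuronal library 4 and without neuronal library 4, each of 29 tested. The number lower was 0 without non-neuronal library 3 and 1 without non-neuronal library 1 or 4 or neuronal library 1, 2 or 4. Chrnb4 and Chrna3, which together form the nicotinic receptor of autonomic ganglia, were both higher. Chrnb4 had 665, 421, 494 and 504 CPM in neuronal libraries, against 114, 109, 78.6 and 30.7 CPM in non-neuronal libraries (log2 fold change 2.53 ± 0.40, adjusted p = 0.000497). Chrna3 had 478, 376, 596 and 386 CPM in neuronal libraries, against 239, 120.4, 84.8 and 79.8 CPM in non-neuronal libraries (log2 fold change 1.73 ± 0.37, adjusted p = 0.0047). Grm7, a presynaptic glutamate receptor gene, had 123, 201, 305 and 306 CPM in neuronal libraries, against 16.4, 5.20, 39.4 and 21.4 CPM in non-neuronal libraries (log2 fold change 3.38 ± 0.57, adjusted p = 0.000793). Grin1, the obligatory NMDA receptor subunit, and Htr2b, a serotonin receptor gene, were higher (2.59 ± 0.44, adjusted p = 0.000847 and 2.25 ± 0.39, adjusted p = 0.000976). Oprk1, the kappa opioid receptor gene, was higher by 1.70. Sstr2, a somatostatin receptor gene, had 4.96, 13.5, 3.33 and 17.3 CPM in neuronal libraries and no count in the non-neuronal ones, which makes it at least 48.8-fold higher, with 3 counts over the group as the floor. P2rx3, a purinergic receptor gene of sensory neurons, was seen in neuronal library 1 (70.2 CPM) and neuronal library 3 (10.8 CPM) and in no other library, and was not tested. Gria3 and Tacr3 were the 2 genes lower, and both calls depended on single libraries. Gria3 (log2 fold change -1.85 ± 0.49, adjusted p = 0.0177) was lost without non-neuronal library 3 (adjusted p = 0.0513). Tacr3 (log2 fold change -4.77 ± 1.46, adjusted p = 0.038) was lost without neuronal libraries 1, 2 or 4 or non-neuronal libraries 1, 3 or 4 (adjusted p = 0.0751, 0.0897, 0.0841, 0.0763, 0.0772 and 0.0683).

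Of 15 genes of RET, endothelin and neurotrophin signalling, 12 were tested, 5 were higher and none was lower. Ret (chr6:118151745-118197718, - strand) had 653, 609.6, 575 and 571 CPM in neuronal libraries, against 232, 171, 94.2 and 79.1 CPM in non-neuronal libraries (log2 fold change 1.96 ± 0.35, adjusted p = 0.00128). The 4 neuronal libraries lay within a narrow range and the non-neuronal ones followed the order of the pan-neuronal sum. Ltk, a receptor kinase related to Alk, had 229, 142, 123 and 79.1 CPM in neuronal libraries, against 5.85, 0.65, 18.01 and 0.504 CPM in non-neuronal libraries (log2 fold change 4.38 ± 0.91, adjusted p = 0.00355). Ntrk2, the receptor of BDNF, had 105.3, 248, 362 and 284 CPM in neuronal libraries, against 7.03, 41.8, 29.0 and 13.3 CPM in non-neuronal libraries (log2 fold change 3.29 ± 0.58, adjusted p = 0.00117). Ntrk3, the receptor of NT-3, had a smaller difference (1.90 ± 0.33, adjusted p = 0.00113). The ligand gene Nrg1 was higher (2.71 ± 0.63, adjusted p = 0.00737). Gfra2, the co-receptor of neurturin, had 185, 128, 101 and 108 CPM in neuronal libraries, against 150.3, 99.4, 101 and 94.2 CPM in non-neuronal libraries (log2 fold change 0.12 ± 0.37, adjusted p = 0.893), so that the groups overlapped. Gfra1, the co-receptor of GDNF, had 2.89, 23.8, 9.23 and 11.1 CPM in neuronal libraries, against 70.6, 13.2, 32.4 and 45.8 CPM in non-neuronal libraries (log2 fold change -1.87 ± 0.80, adjusted p = 0.149). Without neuronal library 3 the list had 1 gene lower of 12 tested.

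Transcription factors gave a mixed list: of 22 genes, 20 were tested, 5 were higher and 3 lower. Ebf3, Ahr and Etv1 were called higher, but their calls depended on single libraries. Ebf3 (log2 fold change 2.27 ± 0.62, adjusted p = 0.0205) was lost without non-neuronal libraries 3 or 4 (adjusted p = 0.0618 and 0.0654). Ahr (log2 fold change 1.89 ± 0.54, adjusted p = 0.0272) was lost without neuronal libraries 2 or 3 or non-neuronal libraries 1, 3 or 4 (adjusted p = 0.0543, 0.0916, 0.0556, 0.0738 and 0.0799). Etv1 (log2 fold change 1.09 ± 0.32, adjusted p = 0.0307) was lost without neuronal libraries 3 or 4 or non-neuronal libraries 1 or 2 (adjusted p = 0.0801, 0.0702, 0.075 and 0.0654). Hmx3 was called (log2 fold change 6.57 ± 1.62, adjusted p = 0.0109) on 244, 3.52, 4.10 and 2.79 CPM in the neuronal libraries and 0.39, 1.52, 0.261 and 0 CPM in non-neuronal libraries, so that neuronal library 1 stood far above the other 3. Its call was lost without neuronal library 1 (adjusted p = 0.329). The count of 5 was 3 without non-neuronal library 4 and without neuronal library 3. Meis2 was strongly lower with 7.02, 3.52, 17.2 and 1.39 CPM in neuronal libraries, against 733, 407, 590.4 and 535 CPM in non-neuronal libraries (log2 fold change -6.35 ± 0.64, adjusted p = 9e-06). Zfhx3 was lower by less (-1.44 ± 0.31, adjusted p = 0.00487), and Sox6 was lower (-3.50 ± 1.11, adjusted p = 0.0474) with a call lost without neuronal libraries 1, 2 or 3 or non-neuronal libraries 3 or 4 (adjusted p = 0.0922, 0.11, 0.106, 0.186 and 0.104). Hand2, Tbx3, Klf7 and Bnc2 were present in both sorts, at 100.0 to 161 CPM in neuronal libraries, against 31.6 to 155 CPM in non-neuronal libraries for Hand2, with no call.

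Part of the neuronal splicing factors were higher in neuronal nuclei. Of 17 RNA-binding and splicing genes, 16 were tested, 6 were higher and 1 lower. Celf3 (chr3:94478295-94492198, + strand), an RNA-binding protein gene of neurons, had 4798, 3958, 3157 and 1801 CPM in neuronal libraries, against 590.1, 288, 159 and 113 CPM in non-neuronal libraries (log2 fold change 3.49 ± 0.46, adjusted p = 0.000104). Its non-neuronal values had the order of Snhg11, highest in library 1. Celf5 had 321, 357, 215 and 61.6 CPM in neuronal libraries, against 18.7, 23.8, 4.70 and 4.03 CPM in non-neuronal libraries (log2 fold change 4.09 ± 0.68, adjusted p = 0.000685). Celf6, Nova2 and Khdrbs2 were higher by 3.56, 3.40 and 2.39. Srrm4, a factor for neuronal microexons, was called (1.29 ± 0.41, adjusted p = 0.0456), and the call was lost without neuronal libraries 1, 2, 3 or 4 or non-neuronal libraries 2, 3 or 4 (adjusted p = 0.0578, 0.133, 0.0576, 0.0919, 0.113, 0.063 and 0.137). Esrp2, an epithelial splicing factor gene, was lower (-5.85 ± 1.36, adjusted p = 0.0075), and its relative Esrp1 had no count in the neuronal libraries and 2.34, 97.9, 4.70 and 52.6 CPM in non-neuronal libraries; it entered the test without non-neuronal library 1 or any neuronal library, and the number lower was then 2 of 17. Rest, the repressor of neuronal genes outside neurons, had 7.44, 16.8, 22.0 and 17.3 CPM in neuronal libraries, against 42.9, 28.6, 38.6 and 45.6 CPM in non-neuronal libraries (log2 fold change -1.40 ± 0.67, adjusted p = 0.206). None of the 8 tested genes of REST and its corepressors was called.

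The imprinted non-coding genes Meg3, Rian and Mirg of the Dlk1 to Dio3 region were higher in neuronal nuclei. Meg3 had 17866, 19549, 17187 and 11863 CPM in neuronal libraries, against 4920.1, 6435, 2669 and 1789.6 CPM in non-neuronal libraries (log2 fold change 1.94 ± 0.34, adjusted p = 0.00107). Rian had 4205, 4994, 5471 and 5973 CPM in neuronal libraries, against 1428, 1098, 918 and 846 CPM in non-neuronal libraries (log2 fold change 2.16 ± 0.25, adjusted p = 3.3e-05). Mirg had 886, 508, 624 and 480.3 CPM in neuronal libraries, against 87.8, 98.7, 102 and 42.8 CPM in non-neuronal libraries (log2 fold change 2.79 ± 0.37, adjusted p = 0.000128). For each of the 3 genes every neuronal library lay above every non-neuronal one. Miat, another nuclear RNA, was higher (2.68 ± 0.53, adjusted p = 0.00244). Of the list's 11 genes, 10 were tested, 4 were higher and 1 lower. Malat1, a nuclear RNA of most cell types, had 25811 to 32839 CPM in neuronal libraries, against 30651 to 40366 CPM in non-neuronal libraries (log2 fold change -0.42 ± 0.19, adjusted p = 0.168). Neat1 was called lower (log2 fold change -1.30 ± 0.38, adjusted p = 0.0317). The call for Neat1 was lost without neuronal libraries 2, 3 or 4 or non-neuronal library 2 (adjusted p = 0.0894, 0.0653, 0.0879 and 0.159).

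The promoter that drives the tag belongs to the calcium/calmodulin kinase II family, and the endogenous genes are given as a description of the sort. Of 6 genes, all tested, 2 were higher. Camk2b had 713, 459.6, 285 and 213 CPM in neuronal libraries, against 48.4, 50.5, 26.9 and 52.6 CPM in non-neuronal libraries (log2 fold change 3.10 ± 0.43, adjusted p = 0.000158). Camk2a had 567, 488, 558 and 341 CPM in neuronal libraries, against 79.2, 304, 74.9 and 57.7 CPM in non-neuronal libraries (log2 fold change 1.76 ± 0.49, adjusted p = 0.0233). Non-neuronal library 2 held more of it than the other 3. The call of Camk2a was lost without neuronal library 3 or non-neuronal libraries 1, 3 or 4 (adjusted p = 0.0503, 0.0627, 0.0749 and 0.0663). Camk2d and Camk2g, which many cell types express, were not called (-0.44 and -0.29).

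Of 31 adhesion and guidance genes of neurons, 28 were tested, 12 were higher and 1 lower. Cntnap5a, a contactin-associated protein gene, had 177, 209, 81.3 and 245 CPM in neuronal libraries, against 23.0, 6.496, 20.6 and 7.05 CPM in non-neuronal libraries (log2 fold change 3.53 ± 0.56, adjusted p = 0.000489). Epha5, Unc5c, Unc5d and Dscam, receptors and adhesion molecules of axon guidance, were higher by 2.44, 2.63, 4.56 and 2.83. Slit2, a ligand of the same systems, was higher by 1.84. Epha7 was the gene lower in neuronal nuclei, with 20.7, 41.7, 50.2 and 61.3 CPM in neuronal libraries, against 332, 116, 477 and 267 CPM in non-neuronal libraries (log2 fold change -2.89 ± 0.47, adjusted p = 0.000641).

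Upstream sequence was searched for 2 motifs, each known from promoters of one side of the comparison. The CRE motif TGACGTCA binds CREB-family factors and is known from the Sst promoter and other neuronal genes, and the CArG box binds SRF, a regulator of smooth muscle genes. In the 250 bases before RefSeq gene starts of GRCm38.p6, on both strands, the CRE motif was found in 20 of 492 genes higher in neuronal nuclei that had a sequence (4.07%), 13 of 845 genes lower (1.54%) and 300 of 9947 genes tested (3.02%), with 1.77% over all 27025 windows. The CArG box was found in 9 of 492 genes higher (1.83%), 30 of 845 lower (3.55%) and 141 of 9947 tested (1.42%), with 1.62% over all windows. These are matches of letters, not binding sites. Only some of the lists were looked up by name, so other genes above may hold a motif. In the lists looked up, the windows of Cartpt, Sst, Celf3, Celf6 and Syn1 held the CRE. In the smooth muscle list described next, the windows of Ldb3 and Srf held the CArG box, 2 of 15 with a sequence. The window of Elavl4 held the CArG box too, 1 of 13 pan-neuronal genes with a sequence. None of these 13 and none of 6 genes of the cholinergic and tachykinin list held the CRE. Each sequence is shown on the strand of its gene with 30 bases on either side where the window held them, because these genes differed between the sorts, except Sst, which did not pass. Capitals mark the motif. The RefSeq start of Celf3 lies inside the gene as annotated in the table's own annotation.
Cartpt (chr13:99900758-99900825, - strand, motif from 112 bases before the start): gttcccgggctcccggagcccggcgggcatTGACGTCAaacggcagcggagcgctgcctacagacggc
Celf3 (chr3:94484189-94484256, + strand, motif from 139 bases before the start): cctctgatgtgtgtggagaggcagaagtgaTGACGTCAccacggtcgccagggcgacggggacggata
Syn1 (chrX:20921040-20921107, - strand, motif from 159 bases before the start): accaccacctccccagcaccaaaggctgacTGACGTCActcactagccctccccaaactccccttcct
Sst (chr16:23890855-23890922, - strand, motif from 48 bases before the start): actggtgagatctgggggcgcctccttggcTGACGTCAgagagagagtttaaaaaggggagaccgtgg
Ldb3 (chr14:34588682-34588746, - strand, motif from 35 bases before the start): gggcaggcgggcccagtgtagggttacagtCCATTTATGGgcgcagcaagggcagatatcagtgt

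Most smooth muscle genes were lower in neuronal nuclei. Of 20 genes, all tested, 18 were lower, none was higher, and the median log2 fold change was -3.32. The summed list was 2673, 1665, 1907 and 1467 CPM in neuronal libraries and 22837, 15067, 29984 and 17088 CPM in non-neuronal libraries. Myh11 (chr16:14194535-14291372, - strand), the smooth muscle myosin heavy chain, had 517, 231, 216 and 168 CPM in neuronal libraries, against 6416, 4742, 8668 and 5143 CPM in non-neuronal libraries (log2 fold change -4.59 ± 0.38, adjusted p = 1.5e-06). The highest non-neuronal library was library 3, as for 14 of the 20 genes, so muscle did not follow the order of the neuronal sum. Smtn, which encodes smoothelin of contractile cells and overlaps the predicted gene Gm11946, had 17.3, 23.0, 4.87 and 7.80 CPM in neuronal libraries, against 989, 861, 1608 and 712 CPM in non-neuronal libraries (log2 fold change -6.45 ± 0.52, adjusted p = 1.1e-06). Cald1, Mylk and Tpm2, all parts of the contractile apparatus, were lower by similar amounts (-4.61 ± 0.41, adjusted p = 2.7e-06, -4.48 ± 0.44, adjusted p = 7.2e-06 and -4.17 ± 0.55, adjusted p = 0.000107, in that order). Ldb3, whose upstream sequence is printed above, had 17.8, 6.497, 4.10 and 10.3 CPM in neuronal libraries, against 176, 62.4, 51.4 and 67.3 CPM in non-neuronal libraries (log2 fold change -3.30 ± 0.66, adjusted p = 0.00274). The exceptions were Actn1 and Srf, which many cells express (0.43 and -0.08).

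**Figure D4:**
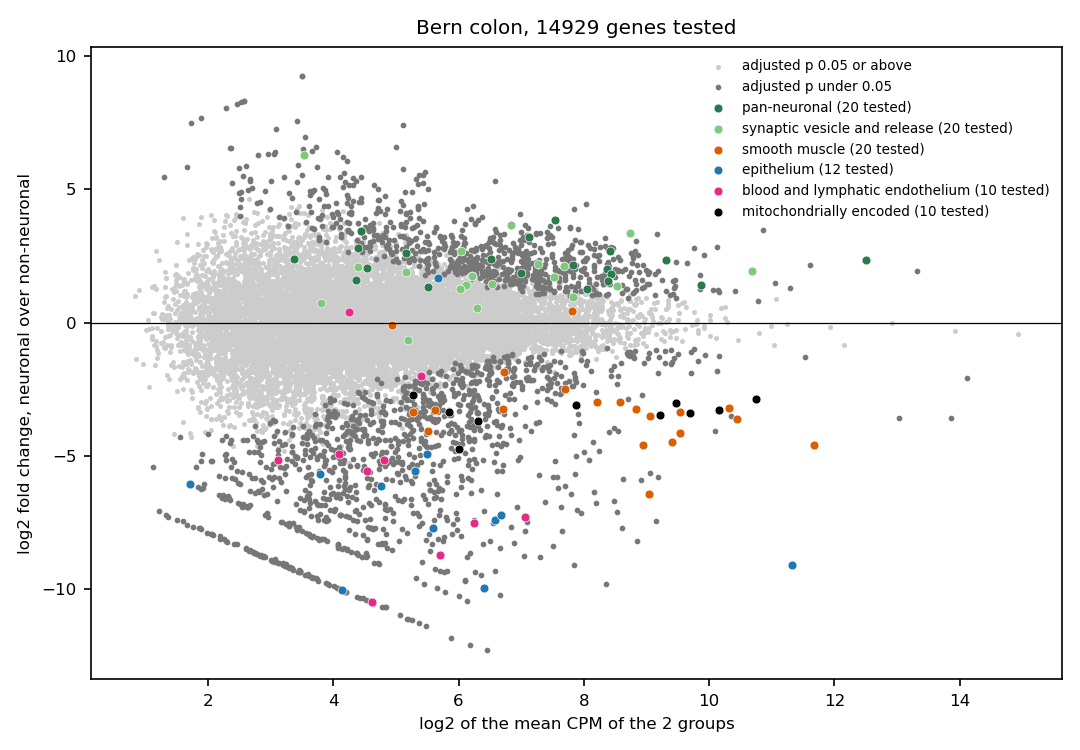
Log2 fold change of neuronal over non-neuronal nuclei against the log2 mean CPM for the 14929 genes tested in Bern colon; colours mark 6 gene lists and darker grey the genes with adjusted p under 0.05. The medians of the pan-neuronal and synaptic genes lie above 0, and those of the smooth muscle, epithelial, endothelial and mitochondrially encoded genes lie below, at -6.67 for the epithelial genes.

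Most of the tested matrix and fibroblast genes were lower in neuronal nuclei. Of 15 tested fibroblast and PDGFRA-cell genes, 11 were lower, and of 23 matrix genes, 15 were lower, with none higher in either list. Tnxb, which encodes tenascin X, had 7.02, 4.60, 2.31 and 1.39 CPM in neuronal libraries, against 689, 281, 606 and 398 CPM in non-neuronal libraries (log2 fold change -7.15 ± 0.55, adjusted p = 6.9e-07). Fn1, which encodes fibronectin, had 35.5, 42.2, 4.61 and 9.47 CPM in neuronal libraries, against 968, 592, 1539.8 and 1052 CPM in non-neuronal libraries (log2 fold change -5.65 ± 0.62, adjusted p = 2.2e-05). Col3a1 had 2.71 to 17.3 CPM in neuronal libraries, against 245 to 672 CPM in non-neuronal libraries (log2 fold change -5.69 ± 0.57, adjusted p = 8.7e-06). Postn and Tnc, matricellular protein genes, were lower (-5.91 ± 0.57, adjusted p = 5.6e-06 and -6.13 ± 0.50, adjusted p = 1.1e-06). Agrn and Vcan, whose products neurons also make, were close to equal (0.09 and -0.07). Of 18 BMP, Csf1 and Wnt genes, 12 were tested and 4 were lower, among them Bmp4 (-3.48 ± 0.68, adjusted p = 0.00246) and the Wnt agonist gene Rspo1 (-5.44 ± 0.90, adjusted p = 0.00067). Csf1, a macrophage growth factor gene that enteric neurons are known to express, was at 26.4 to 45.7 CPM in neuronal libraries, against 6.64 to 76.9 CPM in non-neuronal libraries (log2 fold change -0.07 ± 0.72, adjusted p = 0.972).

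Interstitial cells of Cajal were represented by 8 genes, of which 6 were tested and 5 were lower. Ano1, their chloride channel, had 0.413, 1.62, 0 and 0.279 CPM in neuronal libraries, against 119, 154, 86.9 and 142 CPM in non-neuronal libraries (log2 fold change -7.80 ± 0.82, adjusted p = 1.4e-05). Kit, the receptor these cells depend on, had 11.2, 1.08, 0.256 and 20.6 CPM in neuronal libraries, against 107, 133, 79.9 and 172 CPM in non-neuronal libraries (log2 fold change -4.02 ± 0.91, adjusted p = 0.00614). Prkcq, a kinase gene of the same cells, had 0.413, 0.541, 0 and 0 CPM in neuronal libraries, against 53.1, 6.71, 25.8 and 17.9 CPM in non-neuronal libraries (log2 fold change -6.70 ± 1.33, adjusted p = 0.0026). Elovl6 of this list was present in both sorts (49.99 to 238 CPM in neuronal libraries, against 57.6 to 136 CPM in non-neuronal libraries), with no call (log2 fold change 0.48 ± 0.48, adjusted p = 0.603).

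Most of the tested vessel and mesothelial genes were lower, many of them with hardly a count in the neuronal libraries. Of 14 endothelial genes, 10 were tested and 8 were lower, with a median log2 fold change of -5.38. Prox1, the transcription factor of lymphatic endothelium, had 0.413, 0.541, 0 and 0 CPM in neuronal libraries, against 155, 10.2, 147 and 101 CPM in non-neuronal libraries (log2 fold change -8.73 ± 1.097, adjusted p = 7.2e-05). Cdh5, the cadherin of endothelial junctions, had no count in the neuronal libraries and 47.2, 16.7, 43.6 and 89.4 CPM in non-neuronal libraries (at least 223-fold lower against the floor of 3 counts). Lyve1, a gene of lymphatic endothelium and of some macrophages, had 0.413, 0.541, 0.256 and 1.67 CPM in neuronal libraries, against 827, 386, 531 and 867 CPM in non-neuronal libraries (log2 fold change -9.83 ± 0.57, adjusted p = 1.3e-07). Vwf, by contrast, was at 2.23 to 44.6 CPM in neuronal libraries, against 2.27 to 35.5 CPM in non-neuronal libraries with no call. Of 5 pericyte genes 4 were tested and 3 were lower, among them Abcc9 and Cspg4 (-5.81 ± 0.44, adjusted p = 6.2e-07 and -6.43 ± 0.74, adjusted p = 3.5e-05). Muc16, a surface mucin gene of mesothelium, the lining of the outer gut wall, had 4.96, 1.89, 5.38 and 3.90 CPM in neuronal libraries, against 545, 1185, 608 and 753 CPM in non-neuronal libraries (log2 fold change -7.71 ± 0.49, adjusted p = 2e-07). Of 7 mesothelial genes 3 were tested and 2 were lower, with 4 lower without non-neuronal library 1, neuronal library 1, 2 or 3, and 5 without neuronal library 4. Of 7 adipocyte genes 3 were tested and 2 were lower, Fabp4 (-8.49 ± 1.36, adjusted p = 0.000548) and Plin4 (-3.22 ± 0.80, adjusted p = 0.0115). Acinar genes of the pancreas and erythroid genes, 9 and 5 in number, had 1 tested gene each and no call.

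Some epithelial genes reached high levels in the non-neuronal libraries although muscle layers were the source, and Muc2 supplied most of the summed level there. Of 17 genes, 12 were tested and 11 were lower, and the summed list was 113, 148, 54.1 and 83.9 CPM in neuronal libraries and 2115, 13635, 2969 and 6207 CPM in non-neuronal libraries. Muc2 (chr7:141690340-141754693, + strand), the mucin of goblet cells, had 9.50, 10.6, 6.92 and 14.2 CPM in neuronal libraries, against 1623, 11437, 2512 and 4845 CPM in non-neuronal libraries (log2 fold change -9.12 ± 0.66, adjusted p = 5.1e-07). Library 2 was the highest of the non-neuronal libraries, as for 10 of the 12 tested genes. Zg16, another goblet cell gene, had 0, 0, 0.256 and 0.279 CPM in neuronal libraries, against 44.1, 207, 19.6 and 405 CPM in non-neuronal libraries (log2 fold change -9.98 ± 1.17, adjusted p = 4e-05). Slc26a3, the anion exchanger of colonocytes, had 0, 0.812, 3.33 and 0.279 CPM in neuronal libraries, against 223, 379.8, 85.1 and 76.1 CPM in non-neuronal libraries (log2 fold change -7.41 ± 0.91, adjusted p = 6.3e-05). Mki67, a gene of dividing cells, was lower with 0.413, 0.271, 8.97 and 3.06 CPM in neuronal libraries, against 45.3, 446, 152 and 682 CPM in non-neuronal libraries (log2 fold change -6.75 ± 1.01, adjusted p = 0.000307). Its non-neuronal values, like the epithelial sum, were highest in libraries 2 and 4, whereas those of Slc26a3 were highest in libraries 2 and 1. Of 15 cell cycle genes 6 were tested and 2 were lower, with 4 lower without non-neuronal library 1 or neuronal library 2. The other was Top2a, with no count in neuronal libraries and 10.1, 84.2, 3.92 and 67.5 CPM in non-neuronal ones (at least 188-fold lower, 123 without non-neuronal library 2).

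Several immune genes were lower in neuronal nuclei and 1 was higher. Of 17 macrophage and antigen presentation genes, 11 were tested and 8 were lower. H2-Ab1, an MHC class II gene, had 0.413, 0.271, 0 and 0 CPM in neuronal libraries, against 47.6, 22.1, 48.8 and 105.03 CPM in non-neuronal libraries (log2 fold change -8.32 ± 1.11, adjusted p = 0.000124). Cd74 had 0, 3.52, 1.79 and 1.67 CPM in neuronal libraries, against 194, 66.9, 276 and 41.6 CPM in non-neuronal libraries (log2 fold change -6.42 ± 0.86, adjusted p = 0.00013). Csf1r, the receptor for Csf1, was lower (-6.26 ± 1.35, adjusted p = 0.00458). Adgre1, which encodes the macrophage marker F4/80, had no count in the neuronal libraries and 21.1, 11.04, 6.26 and 21.2 CPM in non-neuronal libraries (at least 67.5-fold lower). Ptprc, the pan-leukocyte gene CD45, was lower (-8.61 ± 1.22, adjusted p = 0.000209), as was the immunoglobulin gene Ighm (-6.61 ± 1.18, adjusted p = 0.00125). Of 14 lymphocyte genes 4 were tested, 2 were lower and 1 was higher. The gene higher was Skap1, an adaptor gene of T cells, with 12.4, 45.7, 84.1 and 29.8 CPM in neuronal libraries, against 6.64, 5.41, 0.783 and 1.01 CPM in non-neuronal libraries (log2 fold change 3.55 ± 0.97, adjusted p = 0.0208). The T cell receptor component gene Cd3e had no count in the neuronal libraries. The call of Skap1 was lost without neuronal library 3 or non-neuronal libraries 3 or 4 (adjusted p = 0.0997, 0.055 and 0.0599). Of 14 Toll-like and NOD receptor genes 8 were tested and 4 were lower, 2 of them without non-neuronal library 4. Tlr5, the flagellin receptor, with no count in neuronal libraries and 18.3, 9.74, 30.02 and 11.6 CPM in non-neuronal ones (at least 79.0-fold lower), and Nod1 (log2 fold change -6.87 ± 1.26, adjusted p = 0.00153) kept their calls with any single library left out. Of 14 interferon-stimulated genes 6 were tested and none was called, and of 7 mast cell and granulocyte genes none had enough counts to be tested. Each of these lists had 1 gene lower when single libraries were left out, the interferon list without non-neuronal library 2 or any neuronal library, and the mast cell list without non-neuronal library 1 or any neuronal library.

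The summed glial genes were lower in every neuronal library than in any non-neuronal one, though few single genes were called. The summed level of 12 genes was 30.2, 78.2, 29.0 and 32.04 CPM in neuronal libraries and 516, 260.1, 330.4 and 168 CPM in non-neuronal libraries, with 6 genes tested and 2 lower. The number lower was 1 of 7 without non-neuronal library 3, 4 of 9 without neuronal library 1 and 5 of 9 without neuronal library 4. In the fit of all 32 libraries it was 7 of 11. Sox10, the transcription factor of enteric glia, had 13.6, 0, 0 and 7.80 CPM in neuronal libraries, against 72.2, 54.8, 42.8 and 24.9 CPM in non-neuronal libraries (log2 fold change -3.31 ± 1.21, adjusted p = 0.0851). Erbb3 was lower (-3.67 ± 0.85, adjusted p = 0.0075), and Cdh19 was lower (-4.88 ± 1.20, adjusted p = 0.0107) with a call lost without non-neuronal library 3 (adjusted p = 0.0508). Gfap, which was not tested, had no count in the neuronal libraries and 35.1, 2.17, 18.5 and 7.30 CPM in non-neuronal libraries. The glial sum was highest in non-neuronal library 1 and lowest in library 4. The part of glial nuclei in the neuronal genes of the non-neuronal libraries was not tested.

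Most of the tested positional genes of the hindgut were lower in neuronal nuclei. Of 16 genes of Hox groups 9 to 13, 7 were tested and 6 were lower, whereas of 23 genes of groups 1 to 8, 14 were tested, 1 was higher and 2 were lower. In the anterior groups 1 gene was lower without non-neuronal library 3 or 4 or neuronal library 4, and 2 were higher without neuronal library 4. Hoxa13, active in the hindgut, had 0, 0, 0 and 0.279 CPM in neuronal libraries, against 26.1, 28.4, 27.1 and 37.8 CPM in non-neuronal libraries (log2 fold change -8.22 ± 1.27, adjusted p = 0.000403). Hoxd11 had 0, 2.44, 0.256 and 1.11 CPM in neuronal libraries, against 65.2, 28.8, 14.4 and 65.2 CPM in non-neuronal libraries (log2 fold change -5.53 ± 1.09, adjusted p = 0.00251). Hoxa10 had no count in neuronal libraries and 58.2, 26.4, 3.92 and 8.06 CPM in non-neuronal ones (at least 109.5-fold lower, 58.0 without non-neuronal library 1). Hoxd3, of the anterior groups, was higher with 162, 149, 147 and 85.2 CPM in neuronal libraries, against 23.8, 9.09, 60.3 and 16.9 CPM in non-neuronal libraries (log2 fold change 2.17 ± 0.57, adjusted p = 0.0168). The call for Hoxd3 was lost without non-neuronal library 4 (adjusted p = 0.0556). Hoxa5 and Hoxb5 were present in both sorts, Hoxa5 at 17.8 to 67.7 CPM in neuronal libraries, against 13.3 to 74.3 CPM in non-neuronal libraries, with no call.

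Immediate early genes, which are switched on within minutes of stimulation or tissue handling, varied between libraries of both sorts. The summed list was 2419, 664, 779 and 263 CPM in neuronal libraries and 2051, 1200, 1669 and 229 CPM in non-neuronal libraries, with full overlap. From highest to lowest, the library numbers had the same order in both sorts. Egr1 supplied most of it with 1831, 506, 549.9 and 115 CPM in neuronal libraries, against 1307, 834, 1034 and 72.0 CPM in non-neuronal libraries (log2 fold change -0.22 ± 0.70, adjusted p = 0.896). Of 17 genes 11 were tested, and Jun alone was called (log2 fold change -2.73 ± 0.77, adjusted p = 0.025). Without non-neuronal library 1 the count was 2 of 13, and the call was lost without neuronal libraries 2 or 3 or non-neuronal library 3 (adjusted p = 0.069, 0.0556 and 0.0954). Of 16 clock genes 15 were tested, 1 was higher and 2 were lower. Bhlhe40 was lower with 0.413, 0.812, 6.67 and 0 CPM in neuronal libraries, against 42.2, 117, 34.2 and 123 CPM in non-neuronal libraries (log2 fold change -5.36 ± 1.08, adjusted p = 0.00289). Its paralog Bhlhe41 had 226, 78.2, 78.4 and 93.0 CPM in neuronal libraries, against 41.8, 4.11, 14.4 and 3.53 CPM in non-neuronal libraries (log2 fold change 2.85 ± 0.74, adjusted p = 0.0151). The call for Bhlhe41 was lost without neuronal library 1 (adjusted p = 0.0661). Nr1d1 was the other gene lower (-2.26 ± 0.58, adjusted p = 0.0147). The call for Nr1d1 was lost without neuronal library 2 (adjusted p = 0.0532). Without non-neuronal library 2 the list had 2 genes higher. None of 20 cytosolic ribosomal protein genes was called, and 1 was lower without non-neuronal library 2.

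Outside the lists, the genes named are those with the largest folds and the highest levels among genes called without overlap of the groups. Of those higher in neuronal nuclei, Syn3, a synapsin gene whose exons overlap those of Timp3 on the other strand, had 2030.3, 1879, 2226 and 1749 CPM in neuronal libraries, against 393, 224, 205 and 219.6 CPM in non-neuronal libraries (log2 fold change 2.82 ± 0.28, adjusted p = 7.9e-06). Map6, which stabilizes microtubules, and Ptprn, a dense-core granule protein gene, were higher (3.31 ± 0.32, adjusted p = 6.4e-06 and 2.80 ± 0.33, adjusted p = 4.7e-05). Kif1a, an axonal motor of vesicles, had 1674, 1398, 1241 and 1072 CPM in neuronal libraries, against 315, 568, 80.9 and 76.3 CPM in non-neuronal libraries (log2 fold change 2.24 ± 0.53, adjusted p = 0.00793), with non-neuronal libraries 1 and 2 above the other 2. Plxnb1, a semaphorin receptor gene, had 794, 935, 793 and 479 CPM in neuronal libraries, against 242, 195, 52.2 and 36.0 CPM in non-neuronal libraries (log2 fold change 2.41 ± 0.51, adjusted p = 0.00382) and the same split. Cadm3, an adhesion gene, Unc80, a subunit gene of the sodium leak channel, and Srgap3, a regulator of neurites, were higher by 2.27, 2.15 and 2.49. Pcdha2, a clustered protocadherin gene whose isoforms share exons, had 29.3, 23.6, 25.6 and 11.7 CPM in neuronal libraries and no count in non-neuronal ones (at least 113-fold higher). Kcnh4, a potassium channel gene, had 20.7, 37.6, 14.4 and 17.3 CPM and no count in the same groups (at least 112-fold higher). Syt10, a synaptotagmin gene, and Gldc, of the glycine cleavage system, also had no count in non-neuronal libraries, with 30.2, 5.41, 4.87 and 6.96 CPM for Syt10 and 28.5, 10.3, 4.10 and 4.46 CPM for Gldc in neuronal ones. Rasgrf1, a Ras exchange factor gene of neurons, had 33.9, 37.1, 112 and 92.8 CPM in neuronal libraries, against 0, 0, 1.31 and 0 CPM in non-neuronal libraries (log2 fold change 7.42 ± 1.18, adjusted p = 0.000525). Arhgdig, Fam131b, Sertm1, Bex1 and Fgf23 were also higher and had at most 1 CPM in any non-neuronal library. Ly6h (log2 fold change 6.43 ± 1.57, adjusted p = 0.0104) was lost without neuronal library 1 (adjusted p = 0.0646), and Clcn1 (log2 fold change 6.32 ± 1.59, adjusted p = 0.0127) was lost without neuronal library 2 (adjusted p = 0.0593). Spocd1 and P2rx3 had counts in 2 neuronal libraries each and none in non-neuronal ones, and were not tested.

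Of those lower in neuronal nuclei, many are known from epithelium. Ern2, a goblet cell stress sensor gene, and Cdh17, an intestinal cadherin gene, had no count in the neuronal libraries. Ern2 had 33.2, 313, 53.0 and 181 CPM in non-neuronal libraries (at least 658-fold lower in neuronal ones, 404 without library 2) and Cdh17 had 21.9, 223, 21.1 and 88.9 CPM (at least 402-fold lower, 199 without library 2). Gsdmc2, one of several near-identical gasdermin genes, Ms4a8a, Arhgef38, Tcim, Selenbp1 and Stra6l had the same pattern, each highest in non-neuronal library 2, and were at least 536, 374, 348, 327, 333 and 304-fold lower. Without library 2 these bounds were 167, 287, 223, 108, 244 and 177. Ceacam1, an adhesion gene of epithelium and vessels, had 2.89, 4.06, 2.31 and 4.46 CPM in neuronal libraries, against 260.3, 2115, 309 and 981 CPM in non-neuronal libraries (log2 fold change -8.21 ± 0.74, adjusted p = 3.3e-06), also highest in library 2. Other genes had other orders. Ecscr, an endothelial surface gene, had no count in the neuronal libraries and 343, 168, 65.0 and 128 CPM in non-neuronal libraries (at least 798-fold lower). Igf1, a growth factor gene, Kirrel, an adhesion gene, and Lilr4b, a receptor gene of myeloid cells, had no neuronal count either, with 79.2, 28.1, 57.2 and 63.0 CPM in non-neuronal libraries for Igf1, 52.7, 54.8, 95.5 and 16.6 CPM for Kirrel and 89.8, 4.55, 13.6 and 121 CPM for Lilr4b. The myosin phosphatase subunit genes Ppp1r12a and Ppp1r12b, the muscle adhesion gene Lpp and Myom1 were lower (-3.49, -2.72, -4.06 and -5.81) and highest in library 3, as was Adam33, a metalloprotease gene of mesenchyme, with 7.85, 9.47, 2.31 and 4.18 CPM in neuronal libraries, against 639.7, 655, 899 and 751 CPM in non-neuronal libraries (log2 fold change -7.10 ± 0.48, adjusted p = 2.9e-07). The mitochondrial ribosomal RNA genes mt-Rnr2 and mt-Rnr1 were lower (-3.58 ± 0.26, adjusted p = 5.5e-07 and -3.59 ± 0.35, adjusted p = 5.7e-06) and highest in library 4.

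**Figure D5:**
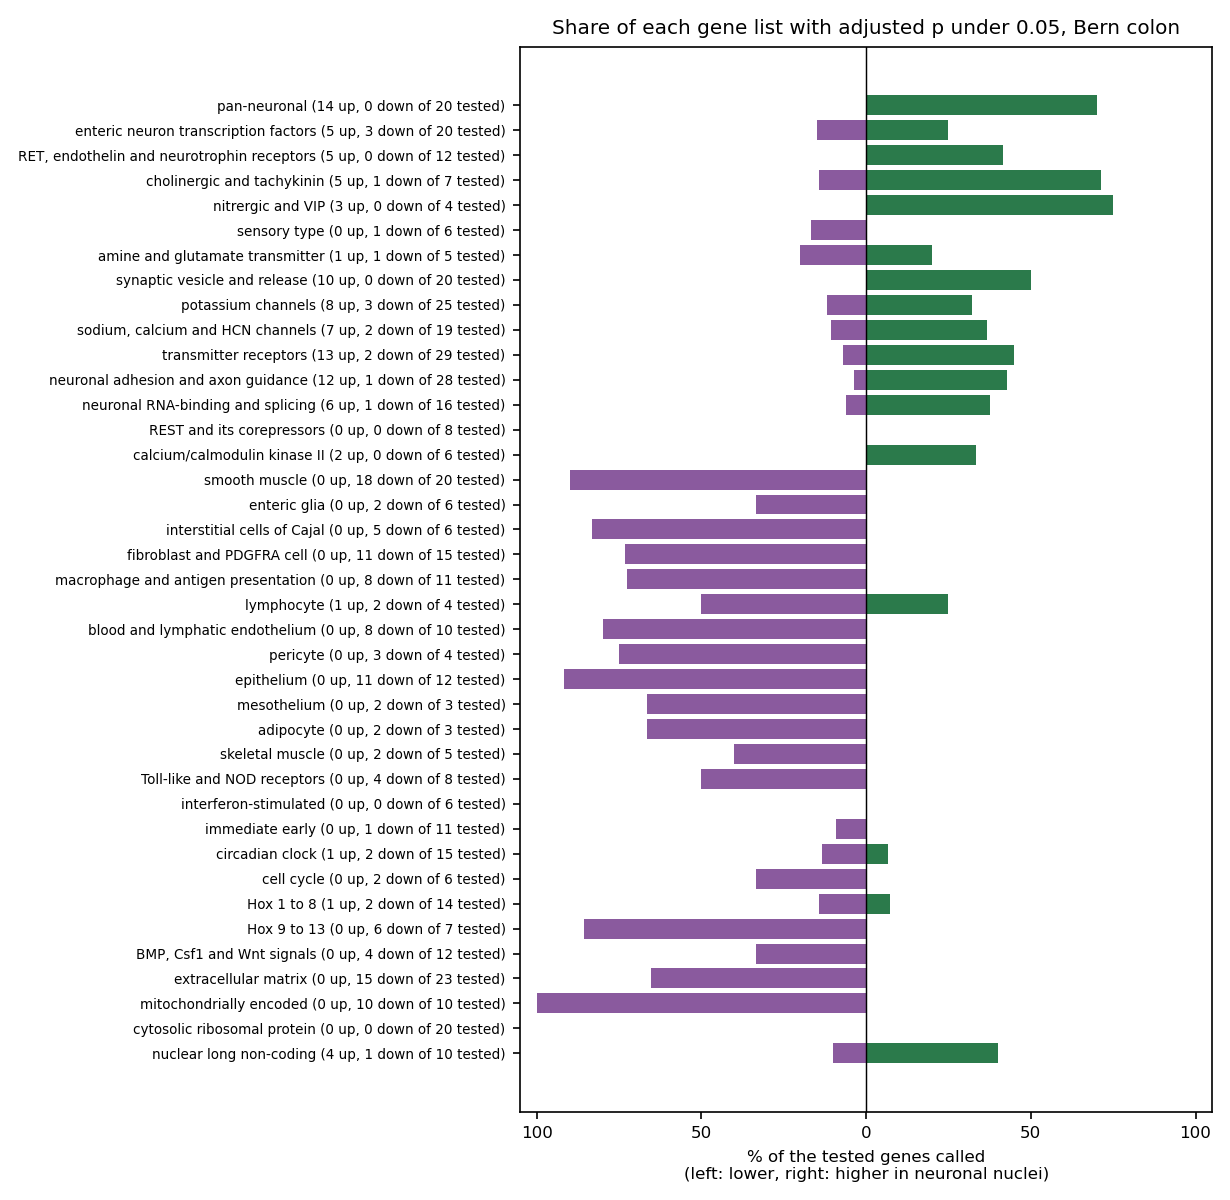
Percentage of the tested genes of each list with adjusted p under 0.05 in Bern colon, higher in neuronal nuclei to the right (green) and lower to the left (purple), for the lists with at least 3 tested genes; counts stand beside the names. Over all genes tested the shares were 5.33% higher and 8.21% lower.

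The Bern colon was set against Crick colon for the neuronal transcripts in the non-neuronal libraries and for the difference between the sorts. Relative to the neuronal mean of the same site, the pan-neuronal sum was 12.1% to 32.9% in Bern colon non-neuronal libraries and 4.99% to 8.63% in Crick colon non-neuronal libraries. In the small intestine it was 13.4% in 1 Bern library and 0.903% to 2.21% in the other 3, and 2.55% to 5.75% in the Crick libraries. Taken gene by gene, the median share in colon was 12.8% to 30.4% in Bern and 7.06% to 12.7% in Crick libraries, so these ranges nearly met. For the release list the sums overlapped, at 17.5% to 29.3% in Bern colon and 13.3% to 18.4% in Crick colon. Elavl4 had 548 ± 175 CPM in the neuronal libraries of Bern colon, where the non-neuronal ones had 143 ± 33.7 CPM. In Crick colon the values were 372 ± 104 CPM in neuronal libraries, against 30.1 ± 14.8 CPM in non-neuronal libraries (SD, n = 4 each). The difference between the sorts of Bern colon was compared with that of Crick colon in a fit of all 32 libraries. This test compares group means and does not address the spread among the non-neuronal libraries. Of 21521 genes tested, none was called with a larger log2 fold change in Bern colon and 1 with a smaller one (0.00465%), although 2219 had an unadjusted p under 0.05. DESeq2 called 119 and 148 genes in these directions. The 1 gene was Gm37376, a predicted gene named after its value was seen (chr19:5801941-5802393, + strand), which lies within Malat1 on the other strand, so that reads of the 2 cannot be told apart without strand. It had 1897, 10007, 7873 and 9490.3 CPM in neuronal libraries, against 20232, 30979, 32303 and 29895 CPM in non-neuronal libraries of Bern colon, while Crick colon had 21825 to 39410 CPM in its neuronal libraries, against 10661 to 19560 CPM in the non-neuronal ones (-2.73 ± 0.45, adjusted p = 0.0135). The pan-neuronal genes had a median difference of -0.90 between the log2 fold changes, Bern minus Crick, with none of 20 called, and the median over all genes tested was -0.08. Snap25, with a log2 fold change in this fit of 1.52 in Bern colon and 3.49 in Crick colon, differed by -1.97 ± 0.84, adjusted p = 0.411. Animal facility and whatever was handled with it cannot be told apart here.

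The comparison with the small intestine of Bern animals uses the same colon libraries and gave more calls. Of 21521 genes, 374 had a larger log2 fold change in Bern colon (1.74%) and 1386 a smaller one (6.44%), 1760 in all (8.18%). The median difference over all genes tested was -0.32. Among the 20 pan-neuronal genes, none had a larger and 8 had a smaller log2 fold change in colon, with a median difference of -2.62. Prph had 599 ± 172 CPM in the neuronal libraries of colon, where the non-neuronal ones had 87.2 ± 52.9 CPM, against 375 ± 56.5 and 2.50 ± 2.57 CPM in the neuronal and non-neuronal libraries of small intestine (difference of log2 fold changes -4.34 ± 0.76, adjusted p = 0.00057). As a ratio, the neuronal means of Prph differed far less between the regions than the non-neuronal means did, although in CPM they differed more. Gria4, an AMPA receptor subunit gene, had 203 ± 36.2 and 95.1 ± 37.8 CPM in colon, against 169 ± 58.4 and 1.99 ± 1.09 CPM in small intestine (-5.11 ± 0.59, adjusted p = 2e-06). Sst had 202 ± 99.2 and 132 ± 38.6 CPM in colon and 28.3 ± 21.4 and 0.386 ± 0.601 CPM in small intestine (-5.40 ± 0.85, adjusted p = 0.000123), so that both sorts held more of it in colon. All 3 genes were also called when only the 16 Bern libraries were fitted, and without non-neuronal colon libraries 1 and 2. Of the 8 pan-neuronal genes, however, Prph alone was called in the fit of Bern libraries only, in which 19 genes were called with a larger and 136 with a smaller log2 fold change.

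Lists of other cell types differed between the regions as well. Ano1 had 0.579 ± 0.718 and 125 ± 29.6 CPM in colon, against 247 ± 288 and 168 ± 159 CPM in small intestine (-8.12 ± 0.99, adjusted p = 4.1e-06), so that in small intestine this gene of interstitial cells was present in both sorts, at 96.9 to 679 CPM over the neuronal libraries. Of 8 genes of interstitial cells of Cajal, 6 had a smaller log2 fold change in colon. Meis2 was at 7.28 ± 6.99 CPM in neuronal libraries of colon and 173 ± 169.7 CPM in those of small intestine, with 566 ± 135 and 991 ± 286 CPM in non-neuronal libraries (-3.57 ± 0.74, adjusted p = 0.00313). Prox1 and Lyve1 had smaller log2 fold changes in colon (-9.69 ± 1.34, adjusted p = 2.1e-05, and -5.96 ± 0.98, adjusted p = 0.000224), where their non-neuronal levels were 104 ± 66.6 and 653 ± 233 CPM, against 2.38 ± 3.24 and 80.9 ± 57.8 CPM in small intestine. Hoxa13 had no count in any Bern small intestine library. The sort differences of Myh11 (0.34 ± 0.56, adjusted p = 0.784) and Nos1 (-0.97 ± 0.92, adjusted p = 0.57) were not called as different between the regions. The colon and small intestine contrasts share no library, but the labels do not say whether they share animals.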

How the data were processed

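Nuclear mRNA was amplified with Ovation RNA-Seq V2 and read as 75 bp single ends on a HiSeq 4000, per the labels' protocols. The deposited table holds the authors' expected counts per gene for 32 libraries; RSEM 1.3.0, STAR 2.5.2, DESeq2 1.10.1 and GRCm38 are named in the submitters' processing notes. Expected counts were rounded to whole numbers (10.8% of values were not whole). Of 51912 gene identifiers, 51719 were matched to the GENCODE M21 annotation for symbols and coordinates, and 193 were not. The rounded counts were tested with edgeR 4.0.16 under R 4.3.3, with a mean per group, TMM factors and the default filter on low counts, on the 8 Bern colon libraries for the main comparison and on all 32 libraries for the 2 comparisons of sort differences. DESeq2 1.42.0, other scalings, no filter, a replicate block and fits without single libraries were run as alternatives. The fits were also run on simulated data with less spread between libraries than was fitted here. That run therefore does not show how the fits perform at the spread of these libraries. With 2420837 to 4618379 counts per library in Bern colon, a count of 0 over a group allows up to 3 counts, and this floor covers counting error only. The 42 gene lists (621 genes) and the choice of the groups were made with earlier results of these data known. Named outside the lists are the 12 genes in each direction with the largest fold and the 8 with the highest level among genes called with at least 10 CPM, no overlap of the groups, a log2 fold of at least 2 for those named by level and no predicted symbol, the 6 largest in each direction for the comparisons of sort differences, and the 4 highest in each direction among genes with no count in one group. A few genes that these rules name or the lists hold are not reported here. Upstream sequences are from RefSeq (GRCm38.p6).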

Additional observations from a re-analysis of the deposited data

Results flagged for a closer look

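Values of 90 groups of 4 Bern colon libraries were screened, among them the summed CPM of the gene lists. By Dixon's criterion 8 groups, all of them list sums, had 1 library standing apart from the other 3. Chance alone meets this criterion in about 1 group in 20. In the RET, endothelin and neurotrophin list, non-neuronal library 1 had 1046 CPM, against 542.5 to 595.1 CPM in the other 3 non-neuronal libraries. In the potassium channel list the same library had 2366 CPM, against 1897 to 1954 CPM. Neuronal library 2 had 78.2 CPM of glial genes, against 29.0 to 32.04 CPM in the other 3 neuronal libraries. Neuronal library 1 had 5.37 CPM of mast cell and granulocyte genes, against 0 to 0.271 CPM, and 30.2 CPM of Hox groups 9 to 13, against 3.33 to 7.58 CPM. It also had 1379 CPM of clock genes, against 784 to 875 CPM, and non-neuronal library 2 had 1152 CPM of clock genes, against 858 to 897 CPM. Neuronal library 4 had 17.3 CPM of mesothelial genes, against 3.79 to 5.90 CPM.

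The sort difference of Bern colon was compared with that of Bern small intestine by the test of the difference itself, and the genes with the largest differences of log2 fold changes were singled out. Those larger in colon were Asb15 (9.97), Nkx2-3 (9.04), Syt10 (8.82), Trmt112 (8.82), Dusp4 (8.56) and Rag2 (7.95). Most of these rested on neuronal colon library 1. Asb15 had 47.5, 0, 0 and 0 CPM in the neuronal colon libraries, Rag2 had 67.7, 0, 0 and 1.11 CPM, Trmt112 had 39.2, 15.2, 0.513 and 0.557 CPM and Dusp4 had 35.1, 0.812, 7.69 and 0.279 CPM. In the fit of Bern libraries only, Nkx2-3, Syt10, Trmt112 and Dusp4 were not called (0.215, 0.156, 0.103 and 0.144, adjusted p), and Asb15 and Rag2 were not tested. Those smaller in colon were Ackr2 (-15.15), Pkhd1 (-14.14), Cbs (-13.24), Smad7 (-12.99) and Aspg (-12.49). All are fitted values that depend on groups at or near 0 counts and are no measure of a fold. In the fit of Bern libraries only, the adjusted p was 0.0306 for Ackr2, 0.0629 for Pkhd1, 0.0456 for Cbs and 0.0319 for Smad7, and Aspg was not tested. Ackr2, a chemokine scavenger receptor gene of lymphatic endothelium, had 0, 0, 0 and 0 CPM in neuronal libraries, against 2.73, 10.2, 3.39 and 36.3 CPM in non-neuronal libraries in colon, against 0.246 to 7.86 CPM in neuronal and 0 to 0 CPM in non-neuronal libraries of small intestine.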

How the results depend on the processing

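In the comparison of neuronal with non-neuronal nuclei of Bern colon, 796 genes higher and 1225 lower, DESeq2 called 1497 and 2606, the fit of all 32 libraries 2225 and 3198, and the fit without a filter 1123 and 2063. Scaling by library totals or by relative log expression, leaving out mitochondrial genes and leaving out non-neuronal libraries 1 and 2 gave 749 to 915 higher and 1150 to 1267 lower. Without single libraries the counts were 631 to 924 higher and 1089 to 1466 lower. With the replicate block they were 863 and 1281. Over all genes tested, libraries of the same number deviated together only weakly (correlations 0.029, 0.022, 0.022 and 0.061), and the numbers were not taken as pairs. Each neuronal library correlated best with the non-neuronal library of its own number. Seen from the other sort, non-neuronal library 2 correlated best with neuronal library 1 (0.024) and non-neuronal library 3 with neuronal library 4 (0.028). The immediate early sums, however, had the same order of library numbers in both sorts. Whether libraries of the same number share animals or handling was not tested. In the comparison with Crick colon, 0 genes larger and 1 smaller, DESeq2 called 119 and 148, no filter 110 and 122, colon libraries only 1 and 3, library totals 1 and 2, and fits without single libraries 0 to 3 and 1 to 5. In the comparison with Bern small intestine, 374 larger and 1386 smaller, DESeq2 called 921 larger, the fit without non-neuronal colon libraries 1 and 2 gave 184 larger, Bern libraries only 19 and 136, and fits without single libraries 309 to 424 and 1198 to 1385. The causes of these moves were not tested. Without single libraries, the difference in mitochondrial share was -5.32 to -4.003 percentage points (exact permutation p = 0.0571, the smallest that 3 against 4 libraries can give), and the difference in genes detected at equal depth was -1318 to -621 (exact permutation p = 0.114 to 0.286). No named gene changed direction past the threshold under any alternative run. Of 178 called named genes, a single alternative other than leaving out libraries ended the call of Chat (all 32 libraries, adjusted p = 0.0831, and replicate block, 0.0528), Dbh (replicate block, 0.0577), Ina (relative log expression, 0.0543), Neat1 (DESeq2, 0.0594), Snap25 (all 32 libraries, 0.0589), Sox6 (library totals, 0.0551) and Srrm4 (relative log expression, 0.0593). Other named genes gained a call under these alternatives. The fit of all 32 libraries added 8 and DESeq2 added 7. The replicate block added 4, the fit without a filter 3 and library totals 2. Library totals moved the median log2 fold change of all genes to 0.06, and that of the difference from small intestine to -0.47. Depth limits genes at a few counts, and the floor of 3 counts was 0.220 CPM over the neuronal group and 0.200 CPM over the non-neuronal one.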
